A study of Mus musculus with 6 samples.

Results

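The genes described here are 10 imprinted genes linked to growth: H19, Igf2, Dlk1, Cdkn1c, Grb10, Peg3, Zim1, Igf2r, Meg3 and Plagl1. They were chosen by name and by their log2 fold changes in each knockout, with those values already in view, so the knockout values of these 10 genes are given as a description, with no test. All 10 passed the filter on low counts, among 17084 genes tested. The RNA came from satellite cells, the resident stem cells of skeletal muscle, of adult C57BL/6 mice whose tibialis anterior and gastrocnemius muscles had been injured with cardiotoxin, a snake venom toxin that kills muscle fibres. The cells were sorted by fluorescence 30 h after injury. Each of the 3 groups, Jmjd3 KO, Utx KO and Tdt Control, had 2 libraries. JMJD3 (gene Kdm6b) and UTX (gene Kdm6a) are demethylases that remove the repressive methyl mark from lysine 27 of histone H3. The injury, strain, muscles and age class were the same in all 3 groups. The series title calls the third group wild type. What drives the deletions, what Tdt denotes and whether replicates were separate or pooled animals are not stated in the sources used here, so p-values measure the spread between these libraries, which may be technical.

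An imprinted gene is transcribed mainly from the copy inherited from one parent, and DNA methylation laid down in the egg or sperm at control regions marks which parent a copy came from. Many imprinted genes set growth before birth, and paternally and maternally expressed members often act in opposite directions on the same pathway. H19 and Igf2 share enhancers and a control region on distal chromosome 7, and Dlk1 and Meg3 share a control region on chromosome 12. Of the 10 genes, 4 are known as paternally expressed (Igf2, Dlk1, Peg3 and Plagl1) and 6 as maternally expressed (H19, Cdkn1c, Grb10, Zim1, Igf2r and Meg3). All values here are totals per gene, so the parental copy was not read.

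In the libraries as a whole, 53750675 to 77675388 estimated reads were assigned to transcripts. Replicates had Pearson correlations of 0.990 to 0.991 in log2 CPM, across genes, which are not independent replicates, and libraries of different groups had 0.982 to 0.989. CPM here are read counts scaled to a common, TMM-normalised library size. Kdm6a stood at 7.68 and 7.38 CPM in Utx KO against 32.8 and 34.0 in Tdt Control. Kdm6b stood at 15.9 and 16.5 CPM in Jmjd3 KO against 29.9 and 22.7 in Tdt Control, so its transcript total was reduced less. The 8 satellite cell markers used for the check, Pax7 and Myod1 among them, summed to between 3813 and 4106 CPM in all 6 libraries. Against Tdt Control, 1 of the 8 was higher and 1 lower in each knockout at an edgeR adjusted p under 0.05. Of all genes tested, 3.0% passed that threshold in Jmjd3 KO and 1.72% in Utx KO. Myod1 read 469 and 473 CPM in control libraries, above 400 and 410 for Jmjd3 KO and 407 and 403 for Utx KO. Des reached 1377 and 1425 CPM in the Jmjd3 KO libraries, over control values of 1091 and 1112. Myf5 was at 83.7 and 82.6 CPM for Utx KO, where control libraries had 60.3 and 62.1. The sum therefore hid differences of single markers. Markers of other cells were present too. The 9 macrophage and monocyte markers summed to 291 and 259 CPM in the Jmjd3 KO libraries, 190 and 224 in the Tdt Control libraries, and 170 and 202 in the Utx KO libraries. The 6 mature fibre markers summed to 4621 and 4838, 3463 and 3593, and 3112 and 3764 CPM in the same order. For 8 neutrophil markers the sums were 154 and 115, 71.9 and 83, and 106 and 127 CPM, with Ly6g and Camp under 0.1 CPM in every library. The 8 fibro-adipogenic markers summed to 1238 and 1221, 1086 and 1069, and 1042 and 1181 CPM. Sums of 7 mural markers were between 370 and 420 CPM, those of 7 endothelial markers between 39.6 and 54.8, those of 3 tenocyte markers between 14 and 18 (Tnmd averaged 0.0654), and those of 3 Schwann markers between 0.632 and 1.33. At the same threshold, 2 neutrophil markers, 1 macrophage and monocyte marker and 1 mature fibre marker were higher in Jmjd3 KO than in Tdt Control. In Utx KO, 1 macrophage and monocyte marker and 1 mature fibre marker were lower. The remaining lists of other cells had 0 past it against Tdt Control. In bulk RNA, fewer cells of a type and less RNA per cell cannot be told apart. The part of these other cells in the values below was not tested.

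Sequences of the 3 start sites below are shown because Dlk1 and Igf2 had the largest spread between the knockouts, while Grb10 has the start richest in CG pairs among the windows matched. CG pairs are the sites at which DNA methylation maintains imprints. Each is the 250 bases before a RefSeq start in GRCm38.p6, read 5′ to 3′ on the gene's strand, with every CG in capitals. The table used here matched 8 of the 10 genes, with 13 windows. Searched by the letters CG, which read the same on both strands, 92.1% of all 32851 windows of this length hold at least one, with a median of 6.
Dlk1, chr12:109452573-109452822, plus strand: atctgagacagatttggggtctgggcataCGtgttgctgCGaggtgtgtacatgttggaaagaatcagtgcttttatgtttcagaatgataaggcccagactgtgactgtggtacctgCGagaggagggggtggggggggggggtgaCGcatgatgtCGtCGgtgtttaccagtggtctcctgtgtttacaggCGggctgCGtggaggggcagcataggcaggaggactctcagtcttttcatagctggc
Igf2, chr7:142657497-142657746, minus strand: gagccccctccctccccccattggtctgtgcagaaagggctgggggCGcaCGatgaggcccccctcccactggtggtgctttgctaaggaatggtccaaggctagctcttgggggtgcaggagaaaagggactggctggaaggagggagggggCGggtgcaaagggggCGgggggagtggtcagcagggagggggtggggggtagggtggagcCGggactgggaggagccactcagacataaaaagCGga
Grb10, chr11:12037421-12037670, minus strand: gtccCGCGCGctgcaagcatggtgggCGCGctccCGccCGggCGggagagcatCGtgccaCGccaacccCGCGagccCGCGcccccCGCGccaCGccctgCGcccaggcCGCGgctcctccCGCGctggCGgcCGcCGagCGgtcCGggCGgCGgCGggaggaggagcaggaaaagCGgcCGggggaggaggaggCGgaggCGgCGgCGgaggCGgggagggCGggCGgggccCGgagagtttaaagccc

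The Dlk1 window holds 8 CG pairs and lies upstream of all annotated Dlk1 transcripts. Its most used transcript, Dlk1-205, starts 632 bases from the RefSeq start. The Igf2 window, with 6 CG pairs, ends at the start of Igf2-201, the transcript with the largest share of the gene's reads in each library. The Grb10 window holds 40 CG pairs, and 98.9% of all windows hold as many or fewer. It ends 19 bases before the start of Grb10-201. These letters are a description of the windows, and methylation was not measured.

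H19 and Igf2 also host miRNAs, shown here because their seeds (bases 2 to 8, in capitals) are the part of a miRNA that pairs with its targets. Mature miRNAs were not analysed here. The sequences are from RefSeq (GRCm38.p6).
mmu-miR-675-5p, in H19: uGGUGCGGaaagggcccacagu
mmu-miR-675-3p, in H19: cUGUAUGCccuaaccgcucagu
mmu-miR-483-5p, in Igf2: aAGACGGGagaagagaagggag
mmu-miR-483-3p, in Igf2: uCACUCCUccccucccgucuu
No 2 of the 4 share a seed.

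Transcript levels of the 10 genes in control cells ran from abundant to low. Compared per length, as TPM (transcript abundance scaled per length and per library), H19 stood highest at 66.8 ± 1.64 (SD, n = 2) in Tdt Control, above 94.1% of the genes tested. Grb10, an adaptor that dampens insulin and IGF1 receptor signalling, followed at 42.0 ± 0.288 TPM. Peg3, a large zinc finger protein, and Igf2r, the receptor that clears IGF2 into lysosomes, were next at 13.9 ± 0.723 and 13.8 ± 0.0117 TPM, and their control libraries overlapped. Igf2, the growth factor itself, stood at 7.99 ± 0.732 TPM and Plagl1, a zinc finger transcription factor, at 7.45 ± 0.547, again with overlapping libraries. Dlk1, a membrane protein with EGF repeats related to Notch ligands, had 5.85 ± 0.602 TPM. Cdkn1c, which encodes the cyclin-dependent kinase inhibitor p57, had 2.22 ± 0.101 TPM, Zim1, a zinc finger gene beside Peg3, 1.14 ± 0.209, and the long RNA Meg3 0.817 ± 0.206. Cdkn1c stood above 43.5% of the genes tested and Meg3 above 32.1%.

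**Figure D1:**
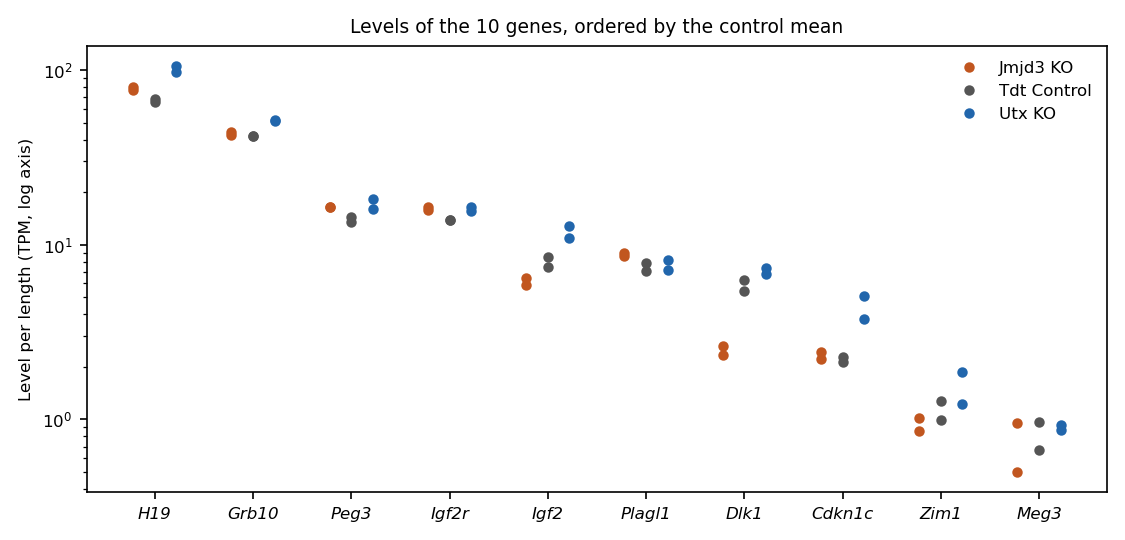
TPM on a log axis of the 10 imprinted genes in each library, ordered by the Tdt Control mean, with 1 point per library and colours for the 3 groups. The order runs from H19 at 66.8 TPM to Meg3 at 0.817 TPM in Tdt Control.

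The ligand Igf2 was low in Jmjd3 KO and high in Utx KO. Igf2 (ENSMUSG00000048583.16, chromosome 7, 142650766 to 142666816 in GRCm38, minus strand) stood at 30.8 and 32.6 CPM in the Jmjd3 KO libraries, 47.3 and 40.3 in the Tdt Control libraries, and 70.5 and 61.9 in the Utx KO libraries. The 3 groups did not overlap. The log2 fold change was -0.47 ± 0.09 (SE) in Jmjd3 KO and 0.60 ± 0.09 in Utx KO, both against the same 2 control libraries, and -1.06 ± 0.09 between the knockouts, a level 2.09-fold lower in Jmjd3 KO. In TPM the libraries read 5.89 and 6.42, 8.51 and 7.47, and 12.8 and 11, in the same order.

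Igf2 transcripts were not used in equal shares across the groups. Igf2-201 took 61.9% and 60.6% of the gene's total in the Jmjd3 KO libraries, 60.3% and 64.1% in the Tdt Control libraries, and 49.4% and 48.1% in Utx KO. Igf2-205, which starts further upstream, took 36.7% and 35.7%, 39.4% and 32.4%, and 46.6% and 46.7%. Scaled to library size, Igf2-205 stood at 11.4 and 11.8 CPM in the Jmjd3 KO libraries, 18.3 and 13.1 in the Tdt Control libraries, and 32.9 and 28.5 in the Utx KO libraries, while Igf2-201 stood at 19.3 and 20.1, 28.0 and 25.9, and 34.9 and 29.3. Both transcripts were therefore higher in Utx KO than in Jmjd3 KO, and the upstream one by the wider margin. The 95% Wilson interval of the Igf2-205 share, for counting error only, was 45.1% to 48.2% and 45.1% to 48.3% in Utx KO and 37.8% to 41.0% and 30.7% to 34.2% in Tdt Control. Igf2-204 held 0.0% to 5.2% of the reads. Reads from exons that transcripts share are divided among them by estimation, so these shares are estimates. The 9 annotated transcripts include 5 with reads.

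**Figure D2:**
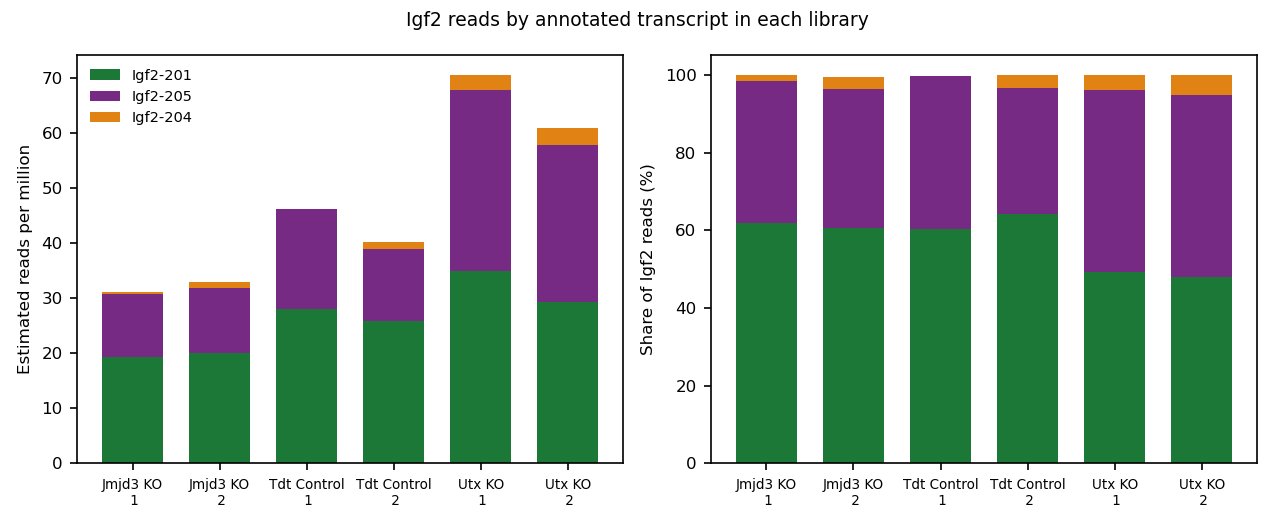
Stacked bars of the 3 Igf2 transcripts with most reads in each of the 6 libraries, as estimated reads scaled to library size (left) and as a percent of the gene's reads (right). The shares of Igf2-205 reach 46.6% and 46.7% in Utx KO, above the 32.4% to 39.4% of the other libraries.

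H19, a long noncoding RNA that shares enhancers with Igf2 and is the host of miR-675, was high in Utx KO. H19 (ENSMUSG00000000031.16, chromosome 7, 142575529 to 142578143, minus strand) stood at 287 and 272 CPM in the Jmjd3 KO libraries, 256.9 and 249.5 in the Tdt Control libraries, and 362 and 401 in the Utx KO libraries. Both knockouts lay above the control libraries and Utx KO above all others. As log2 fold changes these were 0.14 ± 0.06 in Jmjd3 KO, 0.59 ± 0.06 in Utx KO and -0.45 ± 0.06 between the knockouts. H19 and Igf2 therefore differed in direction in Jmjd3 KO and shared it in Utx KO. The ratio of H19 to Igf2 TPM was 13.6 and 12.0 in the Jmjd3 KO libraries, 7.71 and 9.09 in the Tdt Control libraries, and 7.64 and 9.62 in the Utx KO libraries, so the Utx KO and control libraries overlapped on this ratio and the Jmjd3 KO libraries lay above them. One H19 transcript, H19-202, carried most of the reads in every library.

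Igf2r, the receptor side of the pair, had small differences in both knockouts. Igf2r (ENSMUSG00000023830.14, chromosome 17, 12682406 to 12769664, minus strand) stood at 215 and 222 CPM in the Jmjd3 KO libraries, 206 and 195 in the Tdt Control libraries, and 233 and 226 in the Utx KO libraries. The log2 fold change was 0.13 ± 0.05 in Jmjd3 KO and 0.19 ± 0.05 in Utx KO. Its ratio to Igf2 in TPM was 2.67 and 2.56 in the Jmjd3 KO libraries, 1.63 and 1.85 in the Tdt Control libraries, and 1.276 and 1.428 in the Utx KO libraries. An antisense gene, Airn, overlaps Igf2r and stood at 1.60 to 2.37 CPM. The strand setting of the counting is not stated in the sources used here.

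Grb10, the adaptor downstream of the IGF1 and insulin receptors, was slightly high in Utx KO. Grb10 (ENSMUSG00000020176.17, chromosome 11, 11930508 to 12038683, minus strand) stood at 285 and 290 CPM in the Jmjd3 KO libraries, 305 and 293 in the Tdt Control libraries, and 362 and 365 in the Utx KO libraries. The Utx KO libraries were above the rest, while those of Jmjd3 KO lay just below the control. Fitted log2 fold changes were -0.06 ± 0.04 in Jmjd3 KO and 0.28 ± 0.04 in Utx KO, and the fitted fold was 1.21 in Utx KO. In TPM Jmjd3 KO read 42.6 and 43.9 against 41.8 and 42.2 in Tdt Control, so the small Jmjd3 KO difference changed direction with the scale. Grb10-201 carried 96.8% to 98.0% of the reads, from the CG-rich start shown above.

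Dlk1 had the largest difference of the 10 in Jmjd3 KO. Dlk1 (ENSMUSG00000040856.17, chromosome 12, 109452823 to 109463336, plus strand) stood at 4.45 and 4.97 CPM in the Jmjd3 KO libraries, 10.9 and 11.1 in the Tdt Control libraries, and 14.4 and 13.3 in the Utx KO libraries. No group overlapped another. The log2 fold change was -1.22 ± 0.09 in Jmjd3 KO, a level 2.33-fold lower, and 0.33 ± 0.08 in Utx KO. Between the knockouts it was -1.55 ± 0.09, or 2.94-fold lower in Jmjd3 KO. Behind these values were 292 and 321 estimated reads for the Jmjd3 KO libraries and 825 and 733 for the Tdt Control libraries. Dlk1-205 took 70.7% to 86.0% of the reads in the 6 libraries.

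Meg3, the long RNA expressed from the maternal copy of the Dlk1 region, lacked the large Jmjd3 KO difference of Dlk1. In Utx KO its error was too wide to compare it with Dlk1. Meg3 (ENSMUSG00000021268.17, chromosome 12, 109541001 to 109571726, plus strand) stood at 1.97 and 3.11 CPM in the Jmjd3 KO libraries, 2.75 and 2.82 in the Tdt Control libraries, and 2.90 and 2.84 in the Utx KO libraries. The Jmjd3 KO libraries fell on either side of the control, and the log2 fold changes were -0.13 ± 0.21 and 0.04 ± 0.21. The ratio of Dlk1 to Meg3 in TPM was 4.68 and 2.75 in the Jmjd3 KO libraries, 8.08 and 6.52 in the Tdt Control libraries, and 7.91 and 7.90 in the Utx KO libraries. With 1 library left out, the Meg3 difference in Jmjd3 KO ran from -0.50 to 0.16. The upper end was reached without Jmjd3 KO replicate 1.

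Cdkn1c, the cell cycle inhibitor, was high in Utx KO alone among the groups. Cdkn1c (ENSMUSG00000037664.13, chromosome 7, 143458339 to 143461050, minus strand) stood at 4.42 and 4.80 CPM in the Jmjd3 KO libraries, 4.78 and 4.17 in the Tdt Control libraries, and 7.35 and 10.7 in the Utx KO libraries. The Jmjd3 KO and control libraries overlapped, and the Utx KO libraries differed from each other by more than those of any other group. The log2 fold change was 0.04 ± 0.18 in Jmjd3 KO and 1.01 ± 0.18 in Utx KO, a 2.02-fold higher level. Without Utx KO replicate 2 it was 0.71, the lowest value among the alternatives run.

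Peg3 and Zim1 lie next to each other on proximal chromosome 7 and are expressed from opposite parental copies. Peg3 (ENSMUSG00000002265.16, 6703892 to 6730431, minus strand) stood at 206 and 200 CPM in the Jmjd3 KO libraries, 193 and 175 in the Tdt Control libraries, and 240 and 214 in the Utx KO libraries, with log2 fold changes of 0.14 ± 0.07 and 0.31 ± 0.07. Zim1 (ENSMUSG00000002266.17, 6671269 to 6696450, minus strand) stood at 5.82 and 6.36, 5.47 and 5.72, and 8.72 and 7.55 CPM, with log2 fold changes of 0.12 ± 0.11 and 0.54 ± 0.11. In CPM both genes were highest in Utx KO. In TPM the Utx KO libraries of Peg3, at 18.2 and 16.1, overlapped those of Jmjd3 KO, at 16.5 and 16.4. Zim1 in Utx KO, at 1.87 and 1.22 TPM, overlapped the control. For Zim1 the Jmjd3 KO direction depended on the scale: TPM was 1.019 and 0.863 in Jmjd3 KO and 1.283 and 0.988 in Tdt Control, and with transcript length offsets the log2 fold change was -0.36. Zim1-202, which starts close to the main transcript Zim1-201, took 13.3% and 13.1% of the reads in the Jmjd3 KO libraries, 9.91% and 9.74% in the Tdt Control libraries, and 20.4% and 18.8% in Utx KO.

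Plagl1, which encodes a zinc finger transcription factor, had overlapping libraries in CPM in both knockouts. Plagl1 (ENSMUSG00000019817.18, chromosome 10, 13060504 to 13131694, plus strand) stood at 21 and 24.2 CPM in the Jmjd3 KO libraries, 21.8 and 21.6 in the Tdt Control libraries, and 22.7 and 18.5 in the Utx KO libraries. They overlapped between the knockouts too, and the log2 fold changes were 0.06 ± 0.10 and -0.07 ± 0.10. In TPM the Jmjd3 KO libraries, at 9.01 and 8.65, lay above those of Tdt Control, at 7.06 and 7.83.

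**Figure D3:**
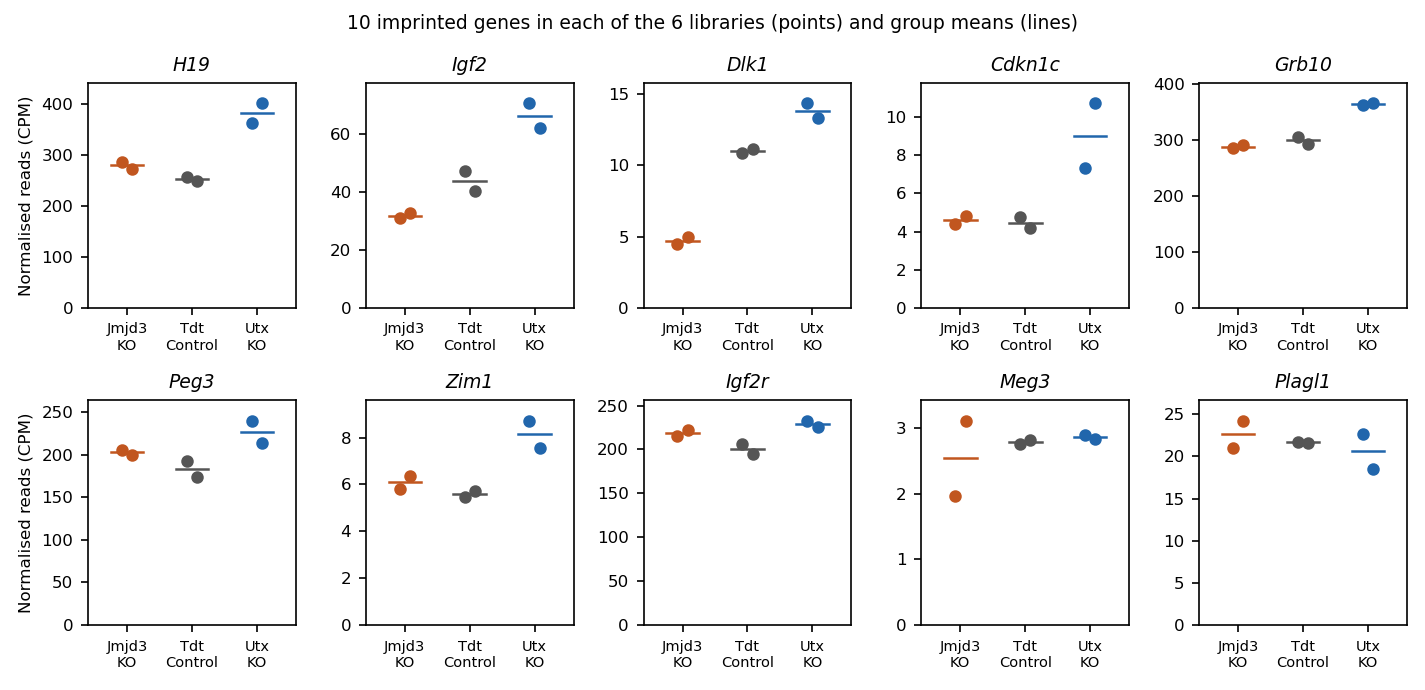
CPM of each of the 10 genes in each library, with 1 point per library and a line at the mean of each of the 3 groups. Dlk1 sits at 4.45 and 4.97 in Jmjd3 KO against 10.9 and 11.1 in Tdt Control, and Plagl1 overlaps in all groups.

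Counted over the list, Jmjd3 KO had 2 of 10 genes past the threshold of an adjusted p under 0.05 (edgeR, over all genes tested), Igf2 and Dlk1, both lower, where 3.0% of all genes passed and 1.03% passed as lower. Utx KO had 4 of 10, H19, Igf2, Cdkn1c and Grb10, all higher, where 1.72% of all genes passed and 0.790% as higher. Between the knockouts 5 of 10 passed, those 4 and Dlk1, all lower in Jmjd3 KO, where 8.02% of all genes passed and 2.89% as lower. The genes were listed with these directions in view, so nothing is read from the shares. In CPM, both libraries of Utx KO lay above both control libraries in 9 of 10 genes, with Plagl1 overlapping, where 22.3% of all genes did so. In Jmjd3 KO 4 lay wholly above (H19, Peg3, Zim1 and Igf2r) and 3 wholly below (Igf2, Dlk1 and Grb10), where 26.2% and 25.5% of all genes did. Between the knockouts 8 of 10 lay wholly lower in Jmjd3 KO, where 28.6% of all genes did. In TPM the count wholly above the control in Utx KO was 7 of 10, where 20.9% of all genes were. In Jmjd3 KO 5 lay wholly above and 2 below in TPM, and over all genes 41.3% and 10.6% did, so this scale stood higher in Jmjd3 KO for many genes. Between the knockouts 6 lay wholly lower in TPM, where 12.7% of all genes did. The median log2 fold change of the 10 was 0.05 in Jmjd3 KO and 0.32 in Utx KO. Over all genes tested it was -0.0047 and -0.0022. The 4 paternally expressed genes had medians of -0.20 and 0.32, and the 6 maternally expressed genes 0.08 and 0.41. The counts changed with 1 library left out. In Utx KO the Tdt Control libraries, left out in turn, each left 0 of 10, Jmjd3 KO replicates 1 and 2 each left 1, and Utx KO replicates 1 and 2 left 2 and 1. In Jmjd3 KO, 1 of 10 remained without Jmjd3 KO replicate 1, Jmjd3 KO replicate 2 or Tdt Control replicate 1. Between the knockouts 3 remained without either Jmjd3 KO library.

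**Figure D4:**
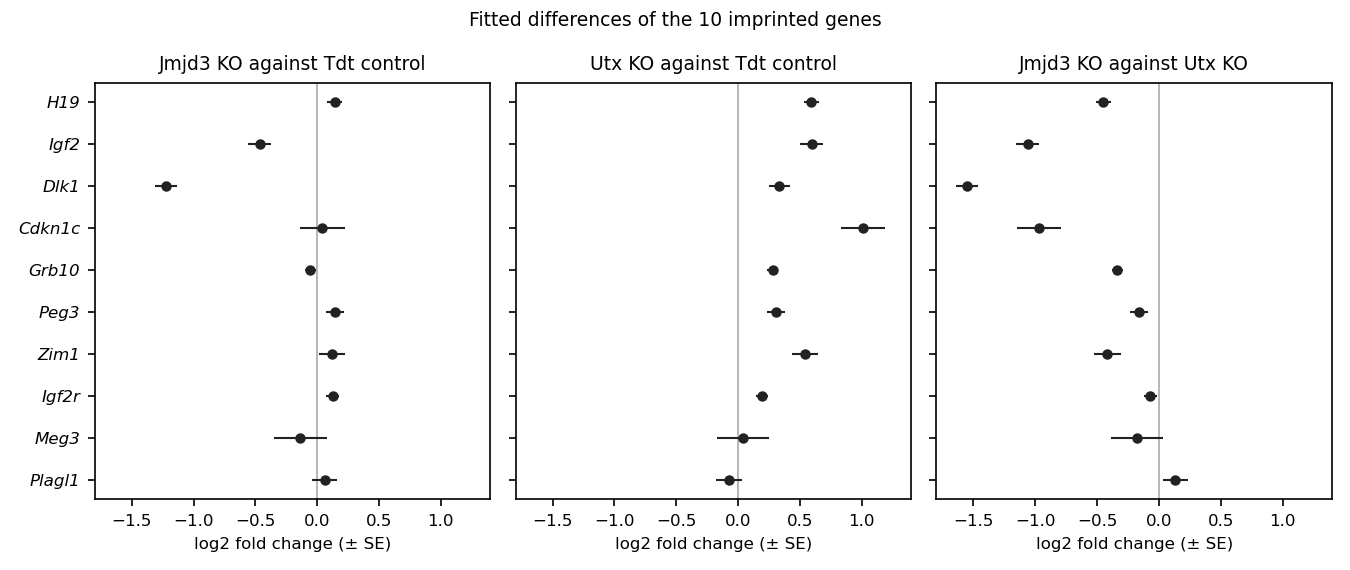
Log2 fold changes of the 10 genes, with bars of 1 SE, in the 3 comparisons. Dlk1 at -1.22 and Igf2 at -0.47 lie left of 0 in Jmjd3 KO against Tdt Control, while 9 of 10 genes lie right of 0 in Utx KO against Tdt Control.

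The authors' deposited table gave the same sign for 17 of 20 of these values. In the authors' deposited table Dlk1 was at -1.30 in Jmjd3 KO and at 0.11 in Utx KO. Zim1 in Utx KO was at 0.05 in the authors' deposited table, far below the 0.54 fitted here. The 3 with another sign in the authors' deposited table, Cdkn1c (-0.0042) and Zim1 (-0.06) in Jmjd3 KO and Plagl1 (0.02) in Utx KO, were all near 0.

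Some genes had library profiles close to those of H19, Igf2, Dlk1 and Meg3. Likeness was measured over the 6 libraries as the root mean square difference of centred log2 CPM, among 9779 genes with a mean of at least 5 CPM. Nearest to H19 were Hspa4l (0.0493), Bmper (0.0619) and Wdcp (0.0691), where a flat profile was 0.256 away. Nearest to Igf2 were Chrm3 (0.101), Adam12 (0.107) and Epop (0.125), against 0.442 for a flat profile. Nearest to Dlk1 were Slfn9 (0.0921), Arl4d (0.132) and Has2 (0.151), against 0.669. Slfn9 stood at 45.4 and 45.1 CPM in the Jmjd3 KO libraries, 99.2 and 114 in the Tdt Control libraries, and 126 and 117 in the Utx KO libraries. Meg3 was nearest to Hba-a2 (0.0693), Pakap (0.102) and Hivep3 (0.103), against 0.211 for a flat profile. Meg3 and these 3 genes were all lowest in Jmjd3 KO replicate 1. Meg3 stood at 1.97 CPM there and at 2.75 to 3.11 in the other libraries, so its likenesses rest largely on 1 library. The points share libraries and depth.

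Among other imprinted genes, the amino acid transporter gene Slc38a4 fell in Jmjd3 KO, and Peg10 and Rian rose in Utx KO. Of 54 listed, 41 were tested, and the remaining 13 were too low. They too were listed with earlier results of these data known, so nothing is read from the share called. The share called was 2.44% in Jmjd3 KO, against 3.0% of all genes, and 4.88% in Utx KO, against 1.72%. In Jmjd3 KO, 0 of 41 rose and 1 fell: Slc38a4, expressed from the paternal copy, stood at 12.5 and 11.8 CPM against 17.4 and 17.8 in Tdt Control (log2 fold change -0.53 ± 0.07, edgeR adjusted p = 0.0114). In Utx KO, 2 of 41 rose and 0 fell. Peg10, a retrotransposon-derived gene, stood at 43.5 and 45.5 CPM against 35.4 and 32.2 (0.39 ± 0.06, adjusted p = 0.0279). Rian, a maternally expressed long RNA downstream of Meg3 in the same chromosome 12 region, stood at 20.7 and 17.0 CPM against 10.4 and 12.2 (0.73 ± 0.12, adjusted p = 0.0309). Usp29, which lies beside Peg3, was at a log2 fold change of 0.54 (adjusted p = 0.0769) and Mest at -0.41 (adjusted p = 0.115). In Jmjd3 KO, Peg10 was at 0.28 (adjusted p = 0.0548), Mest at -0.39 (adjusted p = 0.0931) and Peg13 at 0.29 (adjusted p = 0.118). The medians over the 41 were 0.03 and 0.08. Slc38a4 lost the call without either Jmjd3 KO or either Tdt Control library (adjusted p from 0.0553 to 0.0900). Peg10 lost it without each of the 6 libraries (0.0582 to 0.131), and Rian without each but Utx KO replicate 2 (0.0646 to 0.156).

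Between the knockouts, 0 of the 41 were higher in Jmjd3 KO and 3 were lower, or 7.32% against 8.02% of all genes. Rian was at -1.08 ± 0.12 (edgeR adjusted p = 0.00345), Slc38a4 at -0.56 ± 0.07 (adjusted p = 0.00556) and Usp29 at -0.50 ± 0.12 (adjusted p = 0.0428), and Tnfrsf23 was at 0.76 (adjusted p = 0.0653). Rian kept its call without any 1 library (highest adjusted p = 0.0305). Slc38a4 lost it without Jmjd3 KO replicate 2 (adjusted p = 0.0538) and Usp29 without each of the 6 (0.0533 to 0.201). The macrophage and mature fibre marker sums given above were higher in Jmjd3 KO. Of those markers, 6 of 9 and 2 of 6 were called higher. Of all 17084 genes tested, 877 were called higher there. Among the other marker lists, the fibro-adipogenic had 4 of 8 called higher and the neutrophil 1 of 8. Satellite cell markers had 1 higher and 2 lower of 8, and tenocyte markers 1 lower of 3. The endothelial, mural and Schwann markers had 0 called. The part of these cells in the values of the imprinted genes was not tested.

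**Figure D5:**
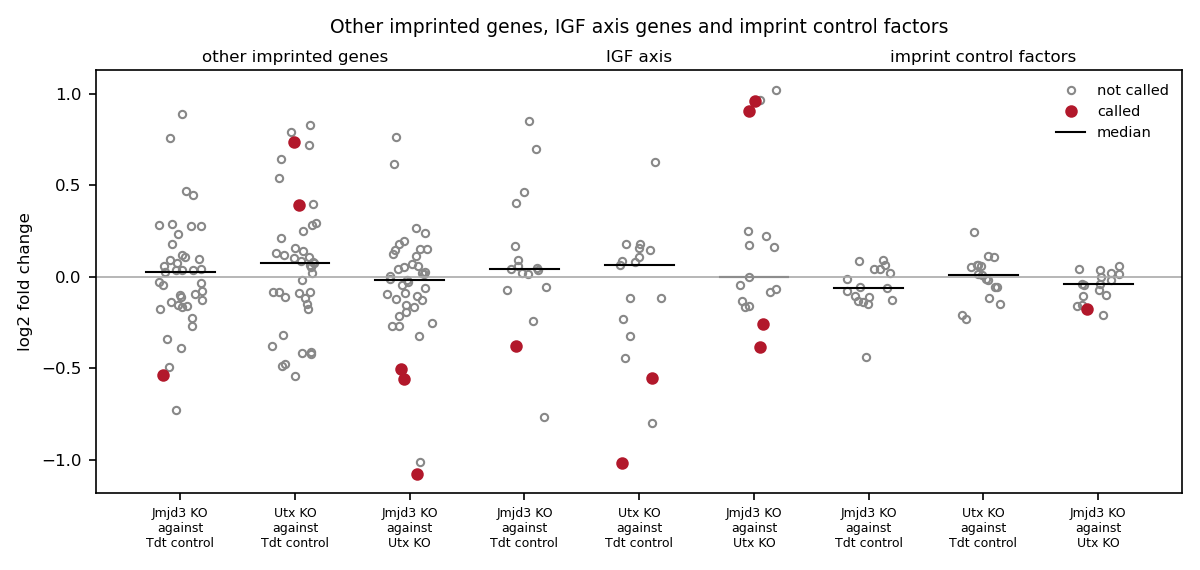
Log2 fold changes of the genes in each list, with 1 point per gene tested, filled where called, and a line at the list median, in the 3 comparisons. The lines of the other imprinted genes lie at 0.03, 0.08 and -0.02, and Rian at -1.08 is the lowest called point.

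Around the IGF ligands and receptors, the genes called encode secreted binding proteins, stanniocalcins and a protease. Of 22 genes of the IGF axis, 17 were tested. This list was chosen with earlier results of these data known, so nothing is read from its shares called. The share called was 5.88% in Jmjd3 KO, 11.8% in Utx KO and 23.5% between the knockouts, against 3.0%, 1.72% and 8.02% of all genes, and rests on 1, 2 and 4 genes. In Jmjd3 KO 0 rose and 1 fell, Igfbp3, a secreted IGF-binding protein (76.7 and 76.4 CPM against 96.2 and 102.5 in Tdt Control, -0.38 ± 0.06, edgeR adjusted p = 0.0223). Stc1 was at -0.76 (adjusted p = 0.0574), Htra1 at 0.46 (adjusted p = 0.0609) and Igfbp4 at 0.40 (adjusted p = 0.0676). In Utx KO 0 rose and 2 fell. Stc1, a secreted inhibitor of the protease PAPP-A, stood at 1.66 and 1.84 CPM against 3.32 and 3.76 (-1.02 ± 0.17, adjusted p = 0.0366). Igfbp4, a binding protein that PAPP-A cuts, stood at 21.7 and 25.6 CPM against 34.05 and 35.5 (-0.55 ± 0.10, adjusted p = 0.0407). Htra1 (-0.44, adjusted p = 0.104) and Insr (0.18, adjusted p = 0.166) were not called. Between the knockouts 2 were higher in Jmjd3 KO, Igfbp4 (0.96, adjusted p = 0.00268) and Htra1, a serine protease (0.91, adjusted p = 0.00428), and 2 lower, Stc2 (-0.39, adjusted p = 0.0170) and Igfbp3 (-0.26, adjusted p = 0.0432). Igfbp4 and Htra1 kept that call without any 1 library, with adjusted p of at most 0.0194 and 0.0351. Both calls in Utx KO were lost without each of the 6 libraries (0.0581 to 0.198). Igfbp3 and Stc2 lost theirs without any library of the groups compared (Igfbp3 from 0.0588 to 0.149 in Jmjd3 KO and 0.115 to 0.189 between the knockouts, Stc2 from 0.0602 to 0.115). The fibro-adipogenic markers had 4 of 8 genes called higher in Jmjd3 KO than in Utx KO and 0 called lower. For all 17084 genes tested those counts were 877 and 493. Of the 8, Dpt was not called and stood lower in Jmjd3 KO (28.5 and 27.0 CPM against 32.4 and 35.5). Col3a1 overlapped between the knockouts (757 and 757 CPM against 669 and 799). The part of fibro-adipogenic cells in the values of secreted proteins was not tested.

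The factors that write and keep imprints include DNA methyltransferases and their partners. Of 20 listed, 17 were tested. Earlier results of these data were known when they were listed, so nothing is read from their counts. At the shares of all genes called, 3.0% and 1.72%, under 1 call among 17 would be the background. The edgeR fit called 0 in Jmjd3 KO and 0 in Utx KO, and DESeq2 called 0 and 0. At an unadjusted edgeR p under 0.05 there were 3 in each, and the share of all genes at that p is not given here. In CPM, both Jmjd3 KO libraries lay below both control libraries in 9 of the 17 and above them in 1. Of all genes, 25.5% lay wholly below and 26.2% wholly above. In Jmjd3 KO the smallest p were those of Dnmt1, the maintenance DNA methyltransferase (-0.14, adjusted p = 0.159), Uhrf1, its partner (-0.11, adjusted p = 0.199), Kdm1b (-0.13, adjusted p = 0.236) and Smchd1 (-0.12, adjusted p = 0.285). In Utx KO they were Kdm1b (-0.15, adjusted p = 0.249), Arid4b (0.24, adjusted p = 0.254), Dnmt1 (-0.12, adjusted p = 0.264) and Dnmt3b (-0.21, adjusted p = 0.405). Between the knockouts 1 of the 17 was called, or 5.88% against 8.02% of all genes. This was Uhrf1, lower in Jmjd3 KO (-0.18 ± 0.04, edgeR adjusted p = 0.0465), and it lost the call without each of the 6 libraries. Zfp445 (-0.16, adjusted p = 0.154) was not called there.

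Genes beside the 10 were called at about the rate of all genes. Within 500 kb lay 66 tested genes that are in neither imprinted list. In Jmjd3 KO 2 rose and 0 fell, or 3.03% of the 66 against 3.0% of all genes. These were Dusp8, a phosphatase 479.7 kb from H19 (17.6 and 17.5 CPM against 13.4 and 12.9 in Tdt Control, 0.41 ± 0.06, edgeR adjusted p = 0.0171), and Stx11, 96.2 kb from Plagl1 (22.5 and 19 CPM against 13.9 and 14.0, 0.58 ± 0.08, adjusted p = 0.0165). In Utx KO 1 fell, or 1.52% against 1.72% of all genes. This was Tnnt3, a fast muscle troponin gene 59.5 kb from H19 (345 and 377 CPM against 441 and 466, -0.33 ± 0.06, adjusted p = 0.0463). Between the knockouts 5 were called, 3 higher and 2 lower in Jmjd3 KO, or 7.58% against 8.02%. Tnnt3 was higher in Jmjd3 KO (0.48 ± 0.06, adjusted p = 0.00526), as was the troponin gene Tnni2 (0.43, adjusted p = 0.0442), and Ikzf1, a lymphoid and myeloid factor 157.6 kb from Grb10, was too (0.89, adjusted p = 0.0182). Gm26130, 149.9 kb from Igf2r, was lower (-0.61 ± 0.09, adjusted p = 0.0107), and so was Gm49369 (adjusted p = 0.0286), which stood under 0.4 CPM in every library. Tnni2, Ikzf1 and Gm49369 were named after their values were seen. Tnnt3 is one of the mature fibre markers, whose sums are given above. In Jmjd3 KO, Dusp8 lost the call without any library of the groups compared (0.0639 to 0.137) and Stx11 without Jmjd3 KO replicate 1 or either Tdt Control library (0.0710 to 0.103). In Utx KO, Tnnt3 lost it without each of the 6 libraries (0.0700 to 0.225). Gm26130 lost it without either Jmjd3 KO library or Utx KO replicate 1 (0.0573 to 0.0757).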

How the data were processed

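RNA sequencing of 6 libraries, 2 each of Jmjd3 KO, Tdt Control and Utx KO, was analysed. Tools named in the submitters' processing notes are Salmon 1.1.0, cutadapt 2.6 and DESeq2 1.28.1, with no role given, on GRCm38 (mm10). Per the file headers, the deposited files per library hold estimated counts and TPM for each transcript. Per the file headers, the authors' tables of comparisons hold a base mean (a signal averaged over libraries), log2 fold changes and their errors, and raw and adjusted p-values. Annotation release and strand setting are not stated in the sources used here.

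Estimated counts were summed per gene through GENCODE M21, matching 139864 of 140748 transcripts without version numbers, and rounded. The transcripts left out held 0.151% to 0.175% of reads. One model in edgeR 4.0.16 under R 4.3.3 took all 6 libraries, with TMM, its low-count filter and a genotype term. The quasi-likelihood test was adjusted by Benjamini-Hochberg over 17084 genes, and a gene was called at an adjusted p under 0.05. The common biological coefficient of variation was 0.0844, with 3 residual degrees of freedom. TPM were used for levels between genes. The fit was tested on simulated data. DESeq2 1.42.0 and the other alternatives are given in the closing section.

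The 10 genes, the other lists and the markers were chosen with earlier results of these data known. In each list and comparison up to 4 genes with the smallest p, and every called gene of the other imprinted list, were named. Among neighbours within 500 kb the 4 with the smallest p were named, and for H19, Igf2, Dlk1 and Meg3 the 3 genes of most alike profile, leaving out Gm and Rik symbols and pseudogenes. Sequences are from RefSeq. Of the 3 windows printed, that of Dlk1 lies outside the annotated gene and those of Igf2 and Grb10 lie within it. Their overlap with annotated exons was not tested.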

Additional observations from a re-analysis of the deposited data

Results flagged for a closer look

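Only the 10 listed genes and the genes named from the other lists were searched for opposite directions. Several genes stood on one side of both Tdt Control libraries in both Jmjd3 KO libraries and on the other side in both Utx KO libraries. The share of all genes with this pattern was not counted, so nothing is read from their number. Both knockouts were compared with the same 2 control libraries. Sides were read in CPM. Among the 10 listed genes Igf2 had log2 fold changes of -0.47 in Jmjd3 KO and 0.60 in Utx KO. Dlk1 had -1.22 and 0.33, and Grb10 -0.06 and 0.28. In TPM, Grb10 in Jmjd3 KO stood above the control, at 42.6 and 43.9 against 41.8 and 42.2. Its opposite direction therefore held in CPM only. Igf2, Dlk1 and Grb10 were listed with their differences in view, so the values are a description.

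For the other genes, the p given is that of the direct comparison of the knockouts (edgeR, adjusted over all genes tested). They are grouped here because of their directions, so these p add nothing to the calls above. Rian had -0.34 in Jmjd3 KO and 0.73 in Utx KO (adjusted p = 0.00345). Igfbp4 had 0.40 and -0.55 (adjusted p = 0.00268), Htra1 0.46 and -0.44 (adjusted p = 0.00428), and Stc2 -0.24 and 0.14 (adjusted p = 0.0170). Tnnt3 had 0.16 and -0.33 (adjusted p = 0.00526) and Uhrf1 -0.11 and 0.06 (adjusted p = 0.0465). Tnfrsf23 had 0.28 and -0.49 and missed the threshold (adjusted p = 0.0653).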

How the results depend on the processing

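Each alternative changed 1 choice of the fit. The log2 fold change of Dlk1 in Jmjd3 KO ran from -1.32 to -1.15. Signs turned in comparisons in which the gene was not called. Among the 10 these were Cdkn1c, Zim1, Meg3 and Plagl1 in Jmjd3 KO, Plagl1 in Utx KO, and Meg3 and Plagl1 between the knockouts. Among the other genes named it was Arid4b between the knockouts (0.0004 without Utx KO replicate 1, and -0.30 once the other Utx KO library was left out). The numbers below are genes called in Jmjd3 KO against Tdt Control, Utx KO against Tdt Control and Jmjd3 KO against Utx KO, in that order where 3 are given.

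Over all genes 513, 293 and 1370 were called. DESeq2 gave 1042 and 658 in the comparisons with Tdt Control, no low-count filter 1872, 1399 and 2856, and transcript length offsets 331, 131 and 792. The 4 libraries of a comparison alone gave 119 in Utx KO. Leaving out 1 library gave 113 to 434, 16 to 96 and 291 to 1387.

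Of the 10 listed genes 2, 4 and 5 were called. In Utx KO, DESeq2 called 7, no filter 8 and the 4 libraries alone 1. Transcript length offsets called 1 in Jmjd3 KO. Leaving out 1 library gave 1 to 2, 0 to 2 and 3 to 5. Of the other imprinted genes 1, 2 and 3 were called. No filter called 6, 5 and 8. In Jmjd3 KO, DESeq2 called 3, a minimum of 5 CPM in 2 libraries 2 and length offsets 0. In Utx KO, length offsets called 1 and the 4 libraries alone 0. Leaving out 1 library gave 0 to 1, 0 to 1 and 1 to 3.

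Of the IGF axis 1, 2 and 4 were called. In Jmjd3 KO, DESeq2 and no filter each called 4 and the 4 libraries alone 3. In Utx KO, the minimum of 5 CPM called 1, and the 4 libraries alone and length offsets 0. Leaving out 1 library gave 0 to 1, 0 to 0 and 2 to 4. Of the imprint control factors 0, 0 and 1 were called. No filter called 1 in Utx KO. Between the knockouts upper-quartile normalization, length offsets and the 4 libraries alone called 0, as did each library left out. Of the neighbours 2, 1 and 5 were called. DESeq2 called 4 and 4 against Tdt Control, no filter 8, 5 and 8, length offsets 1 in Jmjd3 KO, the 4 libraries alone 0 in Utx KO and the minimum of 5 CPM 3 between the knockouts. Leaving out 1 library gave 0 to 2, 0 to 0 and 1 to 4.

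Replicate numbers were shared across groups, and whether same-numbered libraries belong together is not stated. Their deviations from the group mean correlated over genes at -0.0107, -0.00813 and -0.0532. With 2 libraries per group, such values over all genes cannot show whether some genes share a pairing. A fit with a replicate block called 322 genes in Jmjd3 KO and 133 in Utx KO, and 948 between the knockouts. In Utx KO it called 2 of the 10 listed genes, 0 other imprinted genes and 1 gene of the IGF axis, and between the knockouts 0 imprint control factors.

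With 2 libraries per group the spread is poorly known. Meg3 rested on 129 to 209 estimated reads per library, and its Jmjd3 KO libraries lay on either side of the control. RLE normalization moved none of these counts by over 1.5 times. The median log2 fold change of all genes stayed between -0.0122 and 0.0098 under every setting.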
